A study of Mus musculus with 4 samples.

Results

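The genes described are 10 enzymes that build sterols and fatty acids: Acat2 and Idi1 of sterol synthesis, Acss2 and Acacb of acyl precursor supply, the elongases Elovl1 and Elovl6, and the desaturases Fads1, Fads2, Scd1 and Scd2. They were taken by symbol, and all 10 were found among the 4295 genes for which the authors deposited values, each annotated there as a protein-coding gene with the matching enzyme name. The cells were CT26, a BALB/c mouse colon carcinoma line, labelled wild type and held in DMEM with serum. For 24 h, 2 samples received DMSO, the solvent, and 2 received 25 µM riluzole, a drug used in amyotrophic lateral sclerosis, in an experiment on how the drug changes the transcriptome. Nothing in the labels says that the 2 samples of a group were separate cultures, and the p-values then reflect only how far these samples differ, which may be technical variation.

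Cells make fatty acids and sterols from acetyl-CoA. Malonyl-CoA made by acetyl-CoA carboxylases feeds fatty acid chains, which elongases lengthen and desaturases furnish with double bonds, while the mevalonate pathway joins acetyl-CoA units into isoprenoids and cholesterol. Many of these enzymes are induced together by SREBP transcription factors when membrane sterol is low, and proliferating tumour cells rely on the products for membranes.

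With riluzole, 7 of the 10 enzymes rose and 3 fell. The risers were Idi1, Elovl6, Acat2, Acss2, Acacb, Fads2 and Fads1, with log2 fold changes from 0.77 down to 0.18. The 3 that fell were Elovl1, Scd1 and Scd2, by 0.22, 0.16 and 0.12 on the log2 scale. None of these falls was called with TMM or DESeq2 size factors computed on the analysed genes alone. Scd1 and Scd2 changed sign with the DESeq2 factors. Both scalings centre on genes selected for a difference, and all 3 falls stayed called with library totals implied by FPKM. The median log2 fold change was 0.45 over the 10 enzymes and -0.19 over the 4295 analysed genes. Calls were made with edgeR's quasi-likelihood test at a Benjamini-Hochberg adjusted p under 0.05, over the 12601 genes that the authors' deposited table implies were tested. Only the 4295 analysed genes had counts to test, and 41.3% of them were called higher and 58.2% lower. Counting the genes not analysed as not called, 14.1% of the 12601 were called higher and 19.8% lower. Every analysed gene had been listed by the authors at p under 0.05. The 10 were thus chosen from genes that already differed, and their calls carry no independent weight. The same holds where the groups of a gene did not overlap. The adjusted p of the deposited table, computed by the authors, was under 0.05 for 5 risers and for the 3 that fell, and Acss2 and Acacb missed that threshold. By that measure 9.63% of all tested genes were higher and 15.2% lower. No enzyme changed by as much as 2-fold.

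The 4 libraries held 15803444 to 20562946 counts in all, as implied by the deposited FPKM values, and 57.2% to 63.2% of these lay in the analysed genes. All 10 enzymes had a mean normalised count above 100, from 162 for Acss2 to 18796 for Scd2. RNA was taken from whole cultures, so fewer expressing cells and less RNA per cell cannot be told apart. Of 8 colon epithelial markers, Krt18, Krt20 and Krt8 were among the analysed genes. Krt18 and Krt20 ran from 14.0 to 30.2 FPKM and Krt8 stayed at 0.0993 to 0.513 FPKM, and all 3 rose. No gene of short adipocyte, hepatocyte and endothelial marker lists was among them. Of the 7 leukocyte markers Cd68 was, at 8.41 to 14.8 FPKM, and it rose with riluzole; of the 6 fibroblast markers Col1a1, Col1a2 and Pdgfrb were, at 6.50 to 114 FPKM, and fell. The part of these shifts in the results was not tested.

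RefSeq start-site windows of 300 bases (250 before and 50 after the annotated start, GRCm38.p6) were held for 7 of the 10 enzymes. They are shown for Idi1, Acss2 and Elovl6, which rose, and for Elovl1, which fell. The windows of Acat2, Acacb and Fads2 and that of the second Elovl1 start are not shown. Sterol-responsive promoters commonly pair a sterol regulatory element with a CCAAT box. Capitals mark each CCAAT on either strand, which reads ATTGG where it lies on the other strand; the windows come from the reference mouse strain and not from CT26. Each line gives the window 5′ to 3′ in the direction of the gene.
Idi1 (chr13:8885356-8885655, plus strand): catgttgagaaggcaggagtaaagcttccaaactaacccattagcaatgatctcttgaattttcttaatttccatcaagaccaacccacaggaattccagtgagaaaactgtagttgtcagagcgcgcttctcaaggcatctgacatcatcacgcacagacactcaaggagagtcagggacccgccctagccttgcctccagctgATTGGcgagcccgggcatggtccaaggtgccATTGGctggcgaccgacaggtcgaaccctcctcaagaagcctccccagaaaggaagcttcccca
Acss2 (chr2:155517793-155518092, plus strand): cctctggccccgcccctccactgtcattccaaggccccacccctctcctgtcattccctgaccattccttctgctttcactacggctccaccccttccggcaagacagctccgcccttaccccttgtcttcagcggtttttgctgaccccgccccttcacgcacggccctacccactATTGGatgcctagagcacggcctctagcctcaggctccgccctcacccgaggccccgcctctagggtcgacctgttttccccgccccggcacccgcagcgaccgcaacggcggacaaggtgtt
Elovl6 (chr3:129532136-129532435, plus strand): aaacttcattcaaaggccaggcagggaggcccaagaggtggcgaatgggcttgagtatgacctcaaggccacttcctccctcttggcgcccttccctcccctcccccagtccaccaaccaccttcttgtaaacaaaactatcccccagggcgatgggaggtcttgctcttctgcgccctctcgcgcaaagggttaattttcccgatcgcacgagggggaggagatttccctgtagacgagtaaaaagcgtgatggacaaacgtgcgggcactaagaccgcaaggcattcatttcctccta
Elovl1 (chr4:118427843-118428142, plus strand): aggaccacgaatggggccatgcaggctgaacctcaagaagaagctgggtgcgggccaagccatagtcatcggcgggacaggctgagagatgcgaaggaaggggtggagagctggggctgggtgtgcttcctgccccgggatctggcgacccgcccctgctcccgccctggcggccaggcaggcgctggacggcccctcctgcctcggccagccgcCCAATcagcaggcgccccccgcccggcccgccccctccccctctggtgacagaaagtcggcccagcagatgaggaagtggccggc

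The Idi1 window holds a pair of CCAAT boxes on the other strand, starting 45 and 14 bases before the annotated start. Acss2 holds one starting 73 bases before it, Acacb one 87 bases before it on the gene's own strand, and Elovl1 one 35 bases before the first of its 2 annotated starts. The window of the second Elovl1 start holds none. CCAAT was thus found for 4 of the 7 enzymes, and it occurs in 37.4% of the 32851 windows of this length. It was found for risers and for a gene that fell, and not for Elovl6, Acat2 or Fads2, which rose. The sterol regulatory element was searched as TCACNCCAC, with N any base, on both strands and was found in none of the 7 enzymes' windows, against 1.24% of all windows. The E-box CACGTG was in none of them either, against 7.15% of all windows. With CCAAT the sole motif matched, no matches of different motifs overlap, and an absent match says only that these letters are not in this window.

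Acat2 and Idi1, of the mevalonate pathway, rose together. Acat2 encodes the cytosolic thiolase that joins acetyl-CoA units into acetoacetyl-CoA, at the head of the pathway. Its normalised counts were 270 and 272 in the controls and 474 and 365 with riluzole, here and below with replicate 1 before replicate 2. Both riluzole values lay above both controls, but the riluzole pair differed by 0.38 on the log2 scale against 0.0089 for the controls. The rise was 1.56-fold, with a log2 fold change of 0.64 ± 0.11 (SE) and a Benjamini-Hochberg adjusted p of 3.64e-05 in edgeR. Without riluzole replicate 1 it was 0.43 and still called (edgeR adjusted p = 0.0178). Acat2 (chromosome 17, 13161777 to 13179634, mm39) shares 1477 bases at 97.7% identity with Acat3, so reads of both could be divided between them.

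Idi1, which converts isopentenyl diphosphate to its isomer so that isoprenoid chains can start, had the largest change of the 10. Normalised counts were 114 and 129 in the controls and 226 and 189 with riluzole. The groups did not overlap, and as for Acat2 riluzole replicate 1 was the higher of its pair. The log2 fold change was 0.77 ± 0.15 (SE), a 1.70-fold rise, with an edgeR adjusted p of 9.3e-05 and an adjusted p of 0.00855 in the authors' deposited table. In the authors' coordinates Idi1 lies on chromosome 13 from 8935537 to 8942487. It has 684 bases in common with Gm13502 at 100% identity and 681 with Gm35570 at 97.7%, and 323 exon bases overlap Gm48574 on the other strand, which makes its level less certain.

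The wider sterol synthesis list held 22 genes, and 6 of them were analysed, all 6 called higher. Beside Acat2 and Idi1 these were Mvd, Fdft1, Hsd17b7 and Dhcr7, from 20 further genes, with a median log2 fold change of 0.35 over the 4. Counting genes not analysed as not called, the 4 made up 20.0% of the 20, beside 14.1% of all tested genes called higher. Only genes listed by the authors at p under 0.05 could be analysed, so that nearly all of them were called in one direction or the other. Hsd17b7, a ketoreductase of late sterol synthesis, rose by 0.45, and Mvd, the decarboxylase that makes isopentenyl diphosphate, by 0.39. Dhcr7, a late reductase of cholesterol synthesis, rose by 0.31 and the squalene synthase gene Fdft1 by 0.25 on the log2 scale. In the authors' deposited table only Acat2 and Idi1 of the 6 passed; Mvd, Fdft1, Hsd17b7 and Dhcr7 had an adjusted p of 0.103, 0.0973, 0.126 and 0.089 there. The rises of Mvd, Fdft1, Hsd17b7 and Dhcr7 each lost their edgeR call in at least 1 fit with a library left out. Fdft1 overlaps 774 exon bases of Ctsb, which lies on the other strand and also rose (log2 fold change 0.25). With Gm6781 Fdft1 shares 1249 bases at 97.4% identity. Dhcr7 has near-identical stretches of up to 226 bases in several other genes. Hmgcs1, Sqle and Cyp51 were not among the genes analysed here.

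Acss2 and Acacb, which supply acetyl-CoA and malonyl-CoA, rose from low levels. Acss2 encodes the cytosolic synthetase that turns acetate into acetyl-CoA. Its normalised counts were 131 and 128 in the controls and 182 and 209 with riluzole, groups that did not overlap. The rise was 1.51-fold (log2 fold change 0.60 ± 0.14, SE; edgeR adjusted p = 0.00131), and the authors' deposited table gives an adjusted p of 0.0505. Exons of Acss2 (chromosome 2, 155359868 to 155427644) overlap those of Gss by 395 bases, of Acss2os by 335 and of Ggt7 by 197, all on the other strand. The sources used here do not give whether the authors' counting used strand.

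Acacb encodes the acetyl-CoA carboxylase of the outer mitochondrial membrane, whose malonyl-CoA restrains fatty acid entry into mitochondria. Its normalised counts were 251 and 203 in the controls and 344 and 271 with riluzole. The lower riluzole library stood just above the higher control, and the pairs differed by 0.30 (controls) and 0.34 (riluzole) on the log2 scale. The log2 fold change was 0.45 ± 0.13 (SE; edgeR adjusted p = 0.00479), and this was the least secure rise of the 7. Without control replicate 2 it was 0.30 (edgeR adjusted p = 0.14) and without riluzole replicate 1 it was 0.27 (0.334). It also missed the threshold in DESeq2 (adjusted p = 0.0548) and had 0.102 in the authors' deposited table. Acacb lies on chromosome 5 from 114284596 to 114388822. The other carboxylase gene Acaca, the ATP-citrate lyase gene Acly and the fatty acid synthase gene Fasn were not among the genes analysed here.

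**Figure D1:**
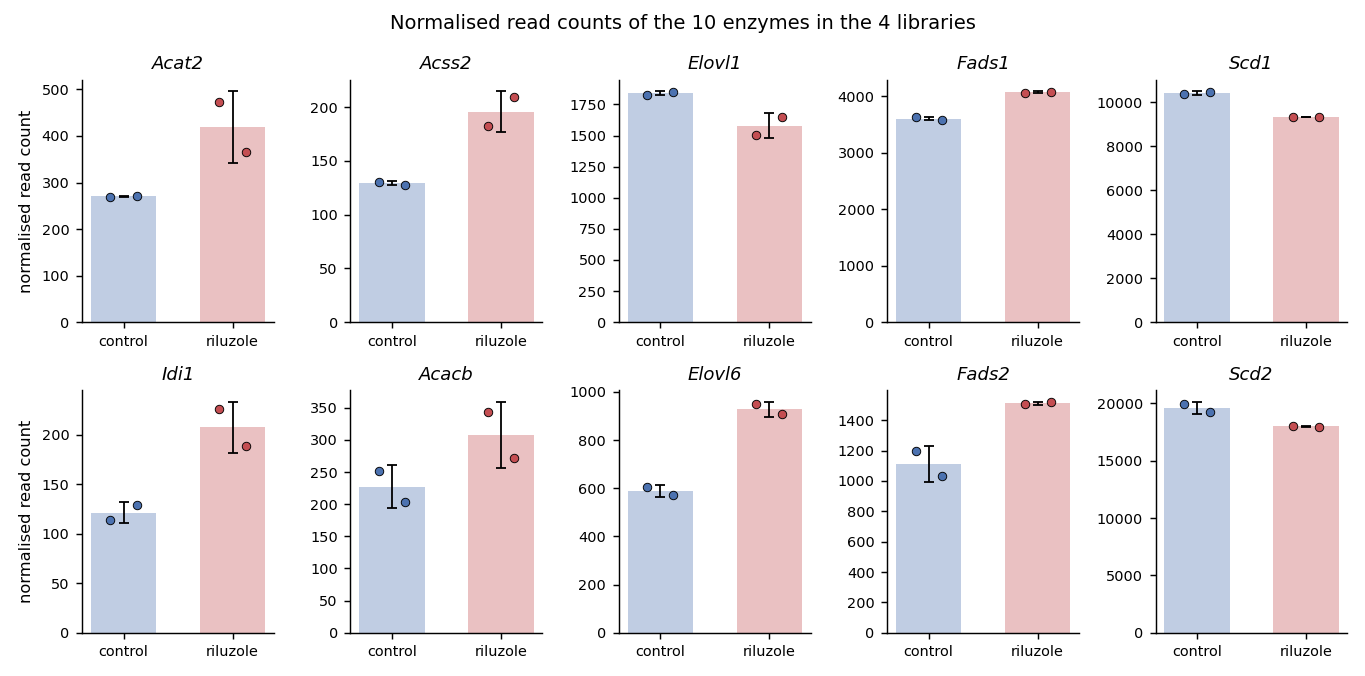
Normalised read counts (counts divided by the authors' size factors, linear axes from 0) of the 10 enzymes, with bars for the group mean, error bars for the SD and points for the 2 libraries of each group. Groups do not overlap for any of the 10. All were listed by the authors at p under 0.05, so this carries no independent weight. The riluzole points of Acat2 (474 and 365) and both pairs of Acacb lie far apart for their means. The falls of Elovl1, Scd1 and Scd2 were not called under TMM or DESeq2 size factors over the analysed genes. Scd1 and Scd2 changed sign under the latter.

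The elongases Elovl6 and Elovl1 moved in opposite directions. Elovl6 extends saturated and monounsaturated long-chain fatty acids, and its best known step turns palmitate into stearate. Elovl6 had 605 and 571 normalised counts in the controls and 949 and 906 with riluzole. Replicates were close, the pairs differing by 0.083 and 0.067 on the log2 scale, and the riluzole values stood well above the controls. The log2 fold change of 0.66 ± 0.07 (SE), a 1.58-fold rise, had an edgeR adjusted p of 1.47e-08, the smallest of the 10, and 1.62e-07 in the authors' deposited table. In the 11 alternative fits it ranged from 0.62 to 0.83 and was called in each. Elovl6 (chromosome 3, 129326004 to 129432144) shares 805 bases at 97.4% identity with Gm11295.

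Elovl1, which makes the very-long-chain acyl groups of sphingolipids, had 1828 and 1851 normalised counts in the controls and 1506 and 1652 with riluzole. Both riluzole libraries were below both controls. The fall was 0.22 ± 0.05 (SE) on the log2 scale (log2 fold change -0.22; edgeR adjusted p = 0.000921). Elovl1 was not called without riluzole replicate 1 (log2 fold change -0.16, edgeR adjusted p = 0.0588). With TMM or DESeq2 size factors over the analysed genes it was also not called, at -0.12 and -0.06. In the annotation 53 exon bases of Elovl1 (chromosome 4, 118285290 to 118290150) overlap Cdc20 on the other strand.

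A ratio of both elongases within a library does not depend on the scaling. Elovl6 made up 12.3% and 11.6% of the summed FPKM of Elovl6 and Elovl1 in the controls, and 21.1% and 18.9% with riluzole. The share was thus higher with riluzole, 20.0% ± 1.57 against 11.9% ± 0.517 (SD, n = 2), a gap of 8.04 percentage points. Elovl6 was higher and Elovl1 lower in both riluzole libraries, and both genes were listed for a difference. Separation of the shares followed from that and carries no independent weight. In an exact permutation test over the 4 libraries (two-sided) p was 0.333, the smallest that 2 against 2 can give, and 0.5 after Benjamini-Hochberg adjustment over 3 pairs of genes. The log2 ratio of Elovl6 to Elovl1 shifted by 0.88.

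Other genes of the elongation cycle were analysed as part of a list of 32 fatty acid synthesis genes. Of its 24 genes beyond the enzymes above, 5 were analysed, and 4 rose and 1 fell. Hsd17b12, the ketoacyl reductase that acts on the products of elongases, rose from 1955 ± 74.9 to 2833 ± 21.8 normalised counts (SD, n = 2). Its log2 fold change was 0.54 ± 0.05 (SE), with an edgeR adjusted p of 2.23e-10. Tecr, the enoyl reductase that ends the cycle, rose by 0.27 on the log2 scale. Slc25a1, the mitochondrial citrate exporter, rose by 0.21 and Cyb5r3, which passes electrons to desaturases, by 0.12. Cyb5r3 overlaps 243 exon bases of Gm49463 on the other strand. Fads3, a desaturase that acts on sphingoid bases, was at -0.14, was not called with TMM factors over the analysed genes, and changed sign with DESeq2 size factors over them (0.02). In the authors' deposited table Slc25a1 and Fads3 missed the threshold, with adjusted p of 0.114 and 0.141. Slc25a1 and Cyb5r3 lost their edgeR call without control replicate 2 (adjusted p = 0.197 and 0.163) or riluzole replicate 2 (0.141 and 0.228), and Fads3 without control replicate 2 or riluzole replicate 1 (0.262 and 0.325). Cyb5r3 also lost its call with the library totals implied by FPKM (edgeR adjusted p = 0.0704). Of the 24 genes, 16.7% were called higher and 4.17% lower, beside 14.1% and 19.8% of all tested genes, so the share called higher was near that of all genes. Taking all 32, among them 8 of the enzymes chosen from listed genes, 9 were called higher and 4 lower. All 4 calls lower were lost with TMM or DESeq2 size factors over the analysed genes.

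Fads1 and Fads2, the front-end desaturases that make polyunsaturated fatty acids, both rose, and Fads2 more. Fads2 encodes the enzyme that acts first on linoleic and alpha-linolenic acid. It had 1197 and 1029 normalised counts in the controls and 1504 and 1517 with riluzole. The controls differed by 0.22 on the log2 scale and the riluzole libraries by 0.012, with both riluzole values above both controls. The log2 fold change was 0.45 ± 0.06 (SE), a 1.36-fold rise with an edgeR adjusted p of 6.83e-07, and it ranged from 0.34 to 0.61 in the 11 alternatives.

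Fads1, which acts later in the same chain, had 3623 and 3585 normalised counts in the controls and 4056 and 4081 with riluzole. The rise was small, 1.13-fold, but both pairs of replicates agree within 0.0155 on the log2 scale. Its log2 fold change was 0.18 ± 0.04 (SE; edgeR adjusted p = 0.00111; 0.0105 in the authors' deposited table), and it was called in all 11 alternatives. Fads2 (10040129 to 10079110, minus strand) and Fads1 (10160252 to 10174241, plus strand) lie on chromosome 19 with 81.1 kb between them, and both starts border that gap. Fads1 made up 67.5% and 70.5% of the summed FPKM of the pair in the controls and 64.9% and 64.8% with riluzole. The share was thus lower in both riluzole libraries, with a mean difference of -4.12 percentage points (exact permutation test, two-sided p = 0.333, the smallest possible; adjusted 0.5).

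Scd2 and Scd1, the stearoyl-CoA desaturases that introduce the first double bond into saturated acyl chains, were the most abundant of the 10 and fell slightly. Scd1 had 10378 and 10487 normalised counts in the controls and 9333 and 9342 with riluzole. The controls lay above, and the riluzole libraries differed by 0.0013 on the log2 scale. The fall was 0.16 ± 0.04 (SE) on the log2 scale (log2 fold change -0.16; edgeR adjusted p = 0.00159; 0.00106 in the authors' deposited table).

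Scd2, the form prominent in mouse brain and in early life, had 19970 and 19236 normalised counts in the controls and 18022 and 17954 with riluzole. Again both controls lay above both riluzole libraries. Its log2 fold change was -0.12 ± 0.04 (SE; edgeR adjusted p = 0.0166), and it was not called without control replicate 1 (-0.10, edgeR adjusted p = 0.286), riluzole replicate 1 (-0.13, 0.0724) or riluzole replicate 2 (-0.12, 0.0867). With TMM factors over the analysed genes, which move the median log2 fold change of all analysed genes by 0.10, neither desaturase was called (-0.06 for Scd1, -0.02 for Scd2). With DESeq2 size factors over those genes, a shift of 0.17, both stood at or above no change (0.0056 and 0.04). Both scalings centre on genes selected for a difference, more of them lower than higher.

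Scd2 (44282113 to 44295303, plus strand) and Scd1 (44382894 to 44396318, minus strand) lie 87.6 kb apart on chromosome 19. They share 623 bases at 95.5% identity, so some reads could be divided between them. Their balance was close in all libraries. Scd1 made up 36.7% and 37.8% of the pair's summed FPKM in the controls and 36.6% and 36.8% with riluzole, and these values overlap (difference -0.59 percentage points; exact permutation test, two-sided p = 0.667).

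**Figure D2:**
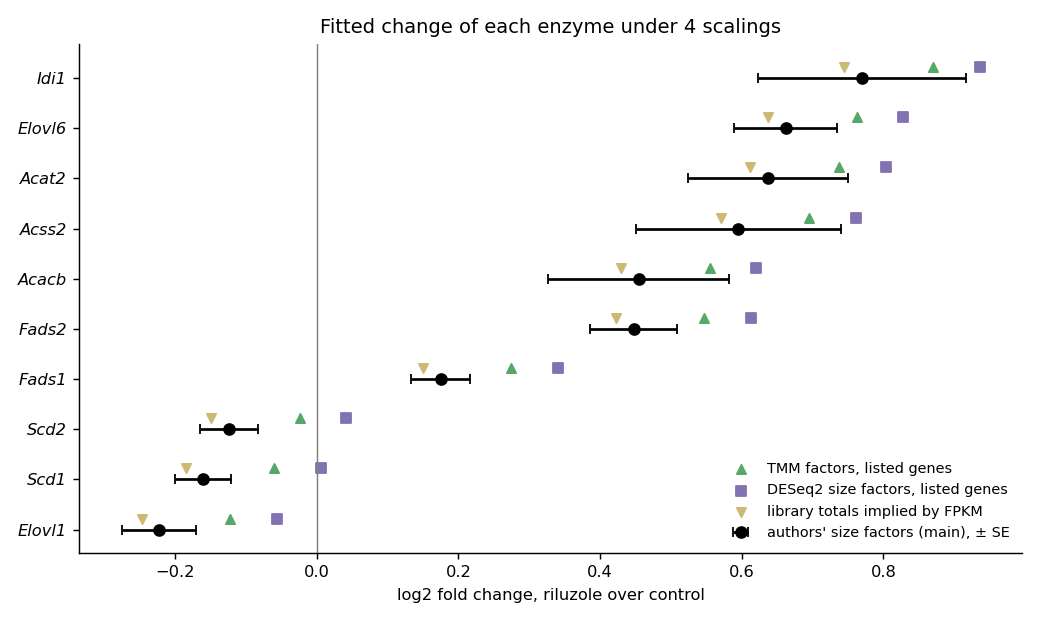
Log2 fold change (riluzole over control) of each enzyme, with black points and SE bars for the authors' size factors and coloured points for 3 other scalings. The 7 risers stay above 0 under each scaling shown, from 0.15 to 0.94; Elovl1, Scd1 and Scd2 move towards 0 with TMM factors, and Scd1 and Scd2 pass it with DESeq2 size factors over the analysed genes.

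Per unit of gene length, the levels of the 10 spanned a wide range with the same order in both groups. In FPKM the control means were 207 for Scd2, 123 for Scd1, 43.3 for Fads1, 39.0 for Elovl1 and 19.5 for Fads2. They were 6.15 for Acat2, 5.28 for Elovl6, 2.00 for Idi1, 1.36 for Acacb and 0.734 for Acss2. Neighbours in that order did not overlap between the 2 control libraries. With riluzole only Acat2 (8.14 and 10.6 FPKM) and Elovl6 (7.99 and 8.38 FPKM) overlapped.

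Scd1 and Scd2 together took 73.7% and 73.9% of the summed FPKM of the 10 enzymes in the controls, and 69.3% in each riluzole library. Fads1 and Fads2 took 14.2% and 13.8%, and 17.3% and 17.5% with riluzole. Acat2 and Idi1 took 1.77% and 1.87% in the controls and 3.34% and 2.63% with riluzole. The sum over all 10 was 448 ± 5.96 FPKM in the controls and 426 ± 0.975 with riluzole (SD, n = 2). Most of the sum is Scd1 and Scd2, so whether it fell depends on their scaling. With library totals implied by FPKM, their log2 fold changes were -0.19 and -0.15, and both were called lower. They changed sign with DESeq2 size factors over the analysed genes, a scaling that centres on genes selected for a difference. These shares come from the same comparison that listed the genes and are given as a description.

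**Figure D3:**
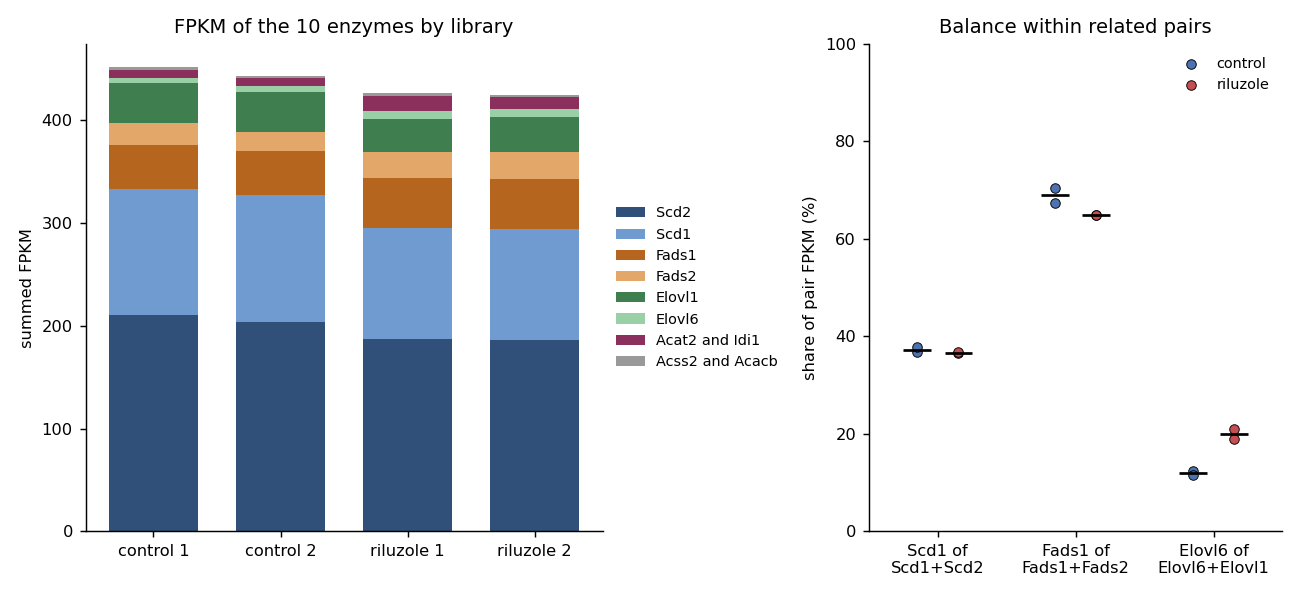
Left, summed FPKM of the 10 enzymes in each library, stacked by gene; right, share of the first-named gene in the summed FPKM of its pair, with points for libraries and lines for group means. Scd1 and Scd2 fill 73.7% and 73.9% of the control bars and 69.3% of each riluzole bar, and the Elovl6 share of 11.9% in controls is 20.0% with riluzole.

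Few genes that regulate sterol levels were among those analysed. Of a list of 27, 5 were, with 3 called higher and 2 lower. These are 11.1% and 7.41% of the list, below the 14.1% and 19.8% of all tested genes. Srebf2, the SREBP form that drives sterol synthesis genes, rose by 0.13 on the log2 scale from 4617 ± 20.9 to 5054 ± 170 normalised counts (SD, n = 2). Its edgeR adjusted p was 0.0115, and its adjusted p in the authors' deposited table was 0.0582. Without control replicate 1 or riluzole replicate 1 Srebf2 kept its direction but lost its call. Insig2, which retains SREBP in the endoplasmic reticulum, and Npc2, which carries cholesterol out of lysosomes, each rose by 0.20. Insig2 lost its call without control replicate 1 (log2 fold change 0.13) or riluzole replicate 1 (0.18). It was also not called in DESeq2 (adjusted p = 0.0903) or in the authors' deposited table (0.141). Soat1, which esterifies cholesterol for storage, went from 3384 ± 109 to 2588 ± 22.2 normalised counts and fell by 0.39 (edgeR adjusted p = 3.96e-08). Mid1ip1, which promotes the assembly of acetyl-CoA carboxylase filaments, also fell by 0.39. It overlaps 543 exon bases of Gm14493 on the other strand. Srebf1, Insig1 and Nr1h3 were not among the genes analysed here.

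Fatty acid oxidation genes, on the opposing route that malonyl-CoA restrains, mostly rose where they were analysed. Of 27 genes 9 were analysed, and 8 were called higher and 1 lower. Their median was 0.35 on the log2 scale. Cpt1a, the malonyl-CoA-sensitive gate for fatty acid entry into mitochondria, rose from 655 ± 14.1 to 1021 ± 90.2 normalised counts (SD, n = 2), a log2 fold change of 0.64 ± 0.07 (SE; edgeR adjusted p = 2.62e-08). The dehydrogenase genes Acads, Hadh, Acadm and Acadl rose by 0.52, 0.35, 0.28 and 0.22. Echs1, the enoyl-CoA hydratase of the same spiral, fell by 0.50 on the log2 scale. It overlaps 142 exon bases of Paox on the other strand. Acaa2, Acaa1a and Etfb, which also rose, had smaller counts, and Acaa2 and Etfb missed the threshold in the authors' deposited table (0.0526 and 0.128). Each of Acaa2, Acaa1a and Etfb lost its edgeR call in at least 1 fit with a library left out. Etfb overlaps 617 exon bases of Gm45233 on the same strand. Acaa1a shares 1428 bases at 96.6% identity with Acaa1b and overlaps 290 exon bases of Myd88 on the other strand. The levels of Etfb and Acaa1a are thus less certain. The share of this list called higher, counting genes not analysed as not called, was 29.6%, beside 14.1% of all tested genes, and 20.0% for the sterol synthesis list without Acat2 and Idi1.

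Of 27 genes that activate fatty acids or load them into glycerolipids 6 were analysed, with 1 called higher and 5 lower, and their median was -0.33 on the log2 scale. The share called lower was 18.5%, near the 19.8% of all tested genes. Dgat2, which completes triacylglycerol, fell by 0.78 on the log2 scale, from 879 ± 85.3 to 515 ± 25.0 normalised counts (SD, n = 2; edgeR adjusted p = 4.47e-09). Gpat3, of the acyltransferase step that starts glycerolipids, fell by 0.46, the fatty acid transporter Slc27a1 by 0.36 and the lipid droplet coat gene Plin2 by 0.30. Gpat3 overlaps 1052 exon bases of 4930458D05Rik on the other strand and 259 of Gm42987 on the same strand, so its level is less certain. Gpat4 was at -0.14 (edgeR adjusted p = 0.011) and changed sign with DESeq2 size factors over the analysed genes (0.02). It was not called with TMM factors over them, without riluzole replicate 1 (edgeR adjusted p = 0.167), in DESeq2 (adjusted p = 0.0614) or in the authors' deposited table (0.0873). Lpin1, a phosphatidate phosphatase that also acts in the nucleus, was the gene that rose (log2 fold change 0.51).

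**Figure D4:**
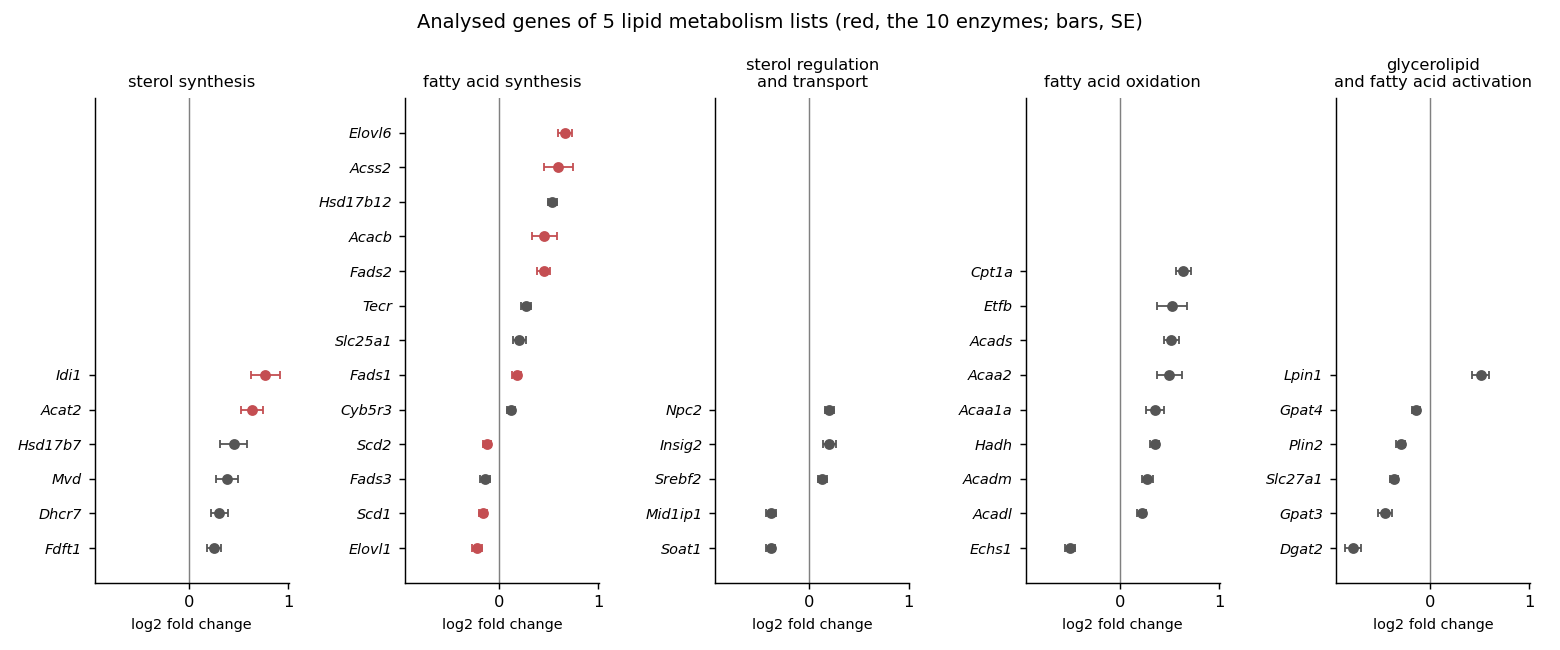
Log2 fold change (riluzole over control, authors' size factors) with SE bars for every analysed gene of 5 lipid lists, the 10 enzymes in red and other genes in grey. All 6 sterol synthesis genes lie above 0 and 8 of 9 oxidation genes do, while 5 of 6 glycerolipid genes lie below 0. Only genes listed by the authors at p under 0.05 are shown. Over whole lists, 18.5% of glycerolipid genes were called lower, near the 19.8% of all tested genes. Called higher were 29.6% of oxidation genes and 20.0% of sterol synthesis genes without Acat2 and Idi1, beside 14.1% of all tested genes. Scd1, Scd2, Fads3 and Gpat4 change sign with DESeq2 size factors over the analysed genes.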

How the data were processed

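Messenger RNA of 4 CT26 libraries was captured on poly-T beads, fragmented and primed with random hexamers, per the labels' protocols. Build mm39 and the tools HISAT2, edgeR, DESeq2 and featureCounts 1.5.0-p3 are named in the submitters' processing notes. The authors deposited raw read counts per gene, normalised values (a signal, each count divided by 1 size factor per library), FPKM, and their log2 fold changes and p-values, per the file headers, for genes at p under 0.05. The sources used here give no settings, annotation or strand use.

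Counts were tested without a filter or covariates by edgeR 4.0.16 (R 4.3.3, quasi-likelihood), with the authors' size factors (0.904 to 1.19) as scaling. Benjamini-Hochberg adjustment used 12601 tests, the number that the deposited p and adjusted p imply within 0.5 for 3648 of 4218 genes. Genes outside the tables gave no p and dispersion was estimated on selected genes (median 0.001), which can make p too small. The test was checked on simulated counts. Pair shares used an exact permutation test (SciPy 1.17.1). Copies (at least 200 bases at 95% identity, BLAST+ 2.17.0) and exon overlaps (at least 50 bases, bedtools 2.31.1) came from GENCODE annotation of GRCm38, matched by gene identifier, and coordinates of genes from the deposited tables (mm39). The 10 enzymes and the lists were chosen with earlier results of these data known. All 10 enzymes are named; so is any analysed gene of the 5 wider lists, and list genes not analysed are named where they are central. After results were known, 2 genes were taken off the sterol lists for a reason unrelated to their values and are not reported here; counts and shares are of the lists without them. Ctsb is named because it overlaps Fdft1, and the genes nearest in pattern by a fixed rule. Alternatives were 3 scalings, a filter at a mean normalised count of 10, DESeq2 1.42.0, the deposited adjusted p, a replicate block and each library left out.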

Additional observations from a re-analysis of the deposited data

How the results depend on the processing

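Over the 11 alternatives Acat2, Idi1, Elovl6, Fads1 and Fads2 kept their direction and their call. Acss2 lost its call only by the deposited adjusted p. The count of the 10 enzymes called lower was 0 with TMM factors and 0 with DESeq2 size factors over the analysed genes, and 1 to 3 with a library left out; that of the fatty acid synthesis list was likewise 0, 0 and 1 to 3. With DESeq2 size factors Fads3 (log2 fold change 0.025), Gpat4 (0.024), Scd1 (0.0056) and Scd2 (0.042) changed sign. All analysed genes called lower numbered 1597 with TMM and 1042 with DESeq2 size factors, against 2501, with 1773 and 1779 called higher, against 1772. The sterol synthesis list had 3 genes called higher in DESeq2 and 2 by the deposited adjusted p, against 6. The sterol regulation list had 1 called higher by the deposited adjusted p and 1 to 3 with a library left out. The low-count filter and FPKM library totals changed no call of the 10. The numbers in the labels do not state a pairing, and deviations of same-numbered libraries correlated at 0.0776 over 3998 genes. With the replicate block 1763 genes were higher and 2510 lower, and no call of the 10 changed. With a library left out, the change in pair share was 6.94 to 9.15 percentage points for Elovl6, -5.62 to -2.61 for Fads1 and -1.15 to -0.028 for Scd1. Counts of 104 to 233 reads for Idi1 and 119 to 189 for Acss2 limit the precision of those folds.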

Other observations

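Over the 4 libraries, the analysed genes whose normalised counts followed those of Idi1 most closely were Cdc14a, Eva1c and Irf1. Likeness was the root mean square difference of log2 normalised counts (pseudocount 1) after centring each gene, which was 0.0249 for Cdc14a, 0.0309 for Eva1c and 0.0344 for Irf1. Cdc14a had 135 and 158 normalised counts in the controls and 267 and 222 with riluzole, so that, as for Idi1, control replicate 2 and riluzole replicate 1 were the higher of their pairs. Irf1 had 235 and 261 in the controls and 435 and 383 with riluzole. With 4 libraries and many genes, such likeness is a description of these samples.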
